A study of Mus musculus with 2 samples.

Results

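The bone morphogenetic protein (BMP) genes described here were measured in mouse embryonic fibroblasts grown without and with fibroblast growth factor 2 (Fgf2). They were chosen by gene symbol, with earlier results of these data known. They comprised the ligand genes Bmp2, Bmp4, Bmp6 and Gdf10 and the antagonist genes Grem1 and Bambi. The target genes Id1, Id2, Id3 and Id4 were also included. All 10 genes had a named probe, which made 11 probes of the 25697 on the array and 10 genes of 16593, with 2 probes for Id2 and 1 for each other gene. Total RNA of 1 culture labelled with the agent none and of 1 labelled with the agent Fgf2 was hybridised to 1 Illumina bead array each. Both cultures carry the labels mouse embryonic fibroblast and male; the strain, the embryonic age, the dose and the duration of exposure are not given in the sources used here. The title of the series places these cells in work on induced pluripotent stem cells. The design text calls both cultures untreated, in conflict with the titles and agents, so every direction below rests on the agent labels. Of genes known to be induced by FGF signalling, Dusp6 (1.10 and 0.81 by the probes detected on both arrays), Etv4 (1.10) and Etv5 (0.997) were higher on the log2 scale on the array labelled Fgf2. Etv5 was dim, with signals of 177 without Fgf2 and 243 with it. Spry4 was detected only on the array without Fgf2, with signals of 186 without Fgf2 and 163 with it. With a single array in each group there was no replicate, no test and no p-value for any difference.

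BMPs are secreted dimeric ligands of the transforming growth factor beta superfamily. They bring together type I and type II receptor kinases, which phosphorylate Smad1, Smad5 and Smad9, and these enter the nucleus with Smad4. The Id genes are direct targets of that complex and encode helix-loop-helix proteins without a DNA-binding region, which hold E proteins such as Tcf4 and Tcf12 away from DNA. BMP and Id activity is known in mouse embryonic stem cells for supporting self-renewal, and BMP ligands in fibroblasts and other mesenchymal cells for guiding cartilage and bone formation.

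The starts of Bmp4 and Gdf10, which differed most, and of Id2, Id3 and Id4 are shown first, as the 250 bases before the transcription start, 5′ to 3′ on the gene's strand, from RefSeq on build GRCm38.p6. Windows were taken for 7 of the 10 genes. None was found for Bmp2 and Id1, and the chromosome of Bambi was left out. Capitals mark matches on either strand to GGCGCC, a GC-rich site bound by BMP Smads, to CAGAC, which holds the Smad core box, and to CANNTG, the E-box bound by helix-loop-helix dimers; no matches overlapped. Bmp4 lies at chr14:46390670-46390919 (minus strand), Gdf10 at chr14:33923337-33923586 (plus), Id2 at chr12:25096093-25096342 (minus), Id3 at chr4:136143572-136143821 (plus) and Id4 at chr13:48260866-48261115 (plus).
Bmp4: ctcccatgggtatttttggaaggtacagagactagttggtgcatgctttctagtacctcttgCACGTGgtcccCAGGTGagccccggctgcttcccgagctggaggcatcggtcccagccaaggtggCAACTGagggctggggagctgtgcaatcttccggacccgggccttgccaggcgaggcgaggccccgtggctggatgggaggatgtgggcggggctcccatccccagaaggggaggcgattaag
Gdf10: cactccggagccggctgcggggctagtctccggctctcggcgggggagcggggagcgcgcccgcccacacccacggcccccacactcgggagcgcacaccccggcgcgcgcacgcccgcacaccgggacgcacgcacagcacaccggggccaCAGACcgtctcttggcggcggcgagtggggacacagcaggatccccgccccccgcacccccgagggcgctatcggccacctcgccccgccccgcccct
Id2: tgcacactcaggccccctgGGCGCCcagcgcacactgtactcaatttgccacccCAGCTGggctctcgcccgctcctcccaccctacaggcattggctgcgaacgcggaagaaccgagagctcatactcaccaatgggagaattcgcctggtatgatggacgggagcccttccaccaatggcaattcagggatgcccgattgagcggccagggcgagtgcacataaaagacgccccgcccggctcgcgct
Id3: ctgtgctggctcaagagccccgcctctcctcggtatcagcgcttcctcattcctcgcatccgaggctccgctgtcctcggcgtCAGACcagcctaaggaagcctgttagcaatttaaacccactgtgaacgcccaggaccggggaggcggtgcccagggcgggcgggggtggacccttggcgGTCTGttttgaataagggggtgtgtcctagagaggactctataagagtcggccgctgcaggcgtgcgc
Id4: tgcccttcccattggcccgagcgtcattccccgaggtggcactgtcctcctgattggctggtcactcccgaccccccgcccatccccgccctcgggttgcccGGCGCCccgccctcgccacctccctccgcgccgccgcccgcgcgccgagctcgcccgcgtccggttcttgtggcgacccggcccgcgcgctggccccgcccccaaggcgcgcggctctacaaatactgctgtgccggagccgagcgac

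The GC-rich site GGCGCC occurred once in the windows of Id2 (231 bases before the start) and Id4 (148 bases), and once in that of Grem1 (78 bases). It was not in the windows of Id3, Bmp4, Gdf10 or Bmp6. Among all 32851 promoter windows of this length, 9.59% held it. CAGAC occurred at 2 places in Id3 (167 and 68 bases before the start) and at 1 place each in Gdf10 (98 bases), Grem1 (219 bases) and Bmp6 (119 bases), against 42.2% of all windows with at least 1 match. E-boxes were found at 3 places in Bmp4 (188, 177 and 123 bases before the start) at 1 in Id2 (196 bases) and at 2 in Bmp6 (127 and 51 bases), against 66.2% of all windows. The 5 printed windows were GC-rich, from 62.8% in Id2 and Id3 through 63.2% in Bmp4 and 75.6% in Id4 to 78.8% in Gdf10, where the median of all windows was 52.4%. These matches describe the letters of the windows, and no binding was measured.

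Signals are scanner intensities, which include a background estimated at 127.9 (SD 14.5) without Fgf2 and 128.4 (SD 14.5) with it. Detection of a probe means here a detection p under 0.01, which held for 41.1% of probes without Fgf2 and 39.9% with it. Levels are background-corrected, quantile-normalized intensities on the log2 scale, and differences are the level with Fgf2 minus the level without it. Both arrays showed fibroblast genes: 11 of 12 fibroblast markers were detected on both, Postn being the exception. Xist, which male cells normally keep silent, was detected on both arrays (signals of 477 and 584 by its brighter probe) beside the Y-linked Eif2s3y (575 and 496), which goes against the label male for both cultures. The result for any gene is of whole cultures, so fewer cells of a type and less RNA per cell cannot be told apart.

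Bmp4 and Gdf10 were the members furthest apart, in opposite directions. Bmp4 encodes a ligand that acts through Smad1 and Smad5. Its signal was 838 without Fgf2 and 323 with it, and the detection p was 0 in either culture. The level went from 9.50 to 7.70, a difference of -1.80, which is 3.48-fold lower with Fgf2. The authors' deposited table gave log2 values of 9.42 and 7.49, a difference of -1.93. Of the 6898 genes detected on both arrays, Bmp4 ranked 45 from the lowest difference, and 0.652% of genes were as low or lower.

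Gdf10, also known as BMP3b, encodes a divergent ligand of the same superfamily. Its signal was 185 without Fgf2, close to background at a detection p of 0.0025, and 431 with Fgf2 at a detection p of 0. The level went from 6.20 to 8.30, a difference of 2.10, which is 4.28-fold higher with Fgf2 and ranked 13 from the highest of the 6898 genes. The authors' deposited table gave 5.75 and 8.14, a difference of 2.39. The size depended on the background, because the untreated signal stood only 3.97 background SDs above the background mean: with no correction the difference was 1.13, against 2.39 in the authors' deposited table. For Bmp4, whose untreated signal stood 49.0 SDs above, the range over the same 8 settings was -1.93 to -1.34.

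**Figure D1:**
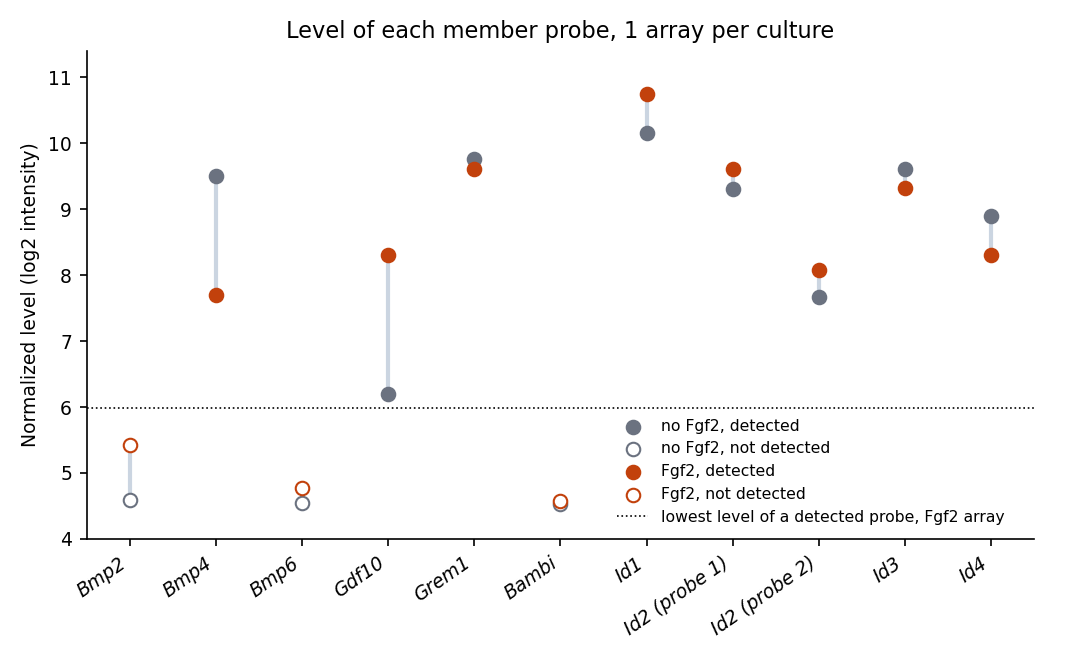
Normalized level (log2 intensity) of each of the 11 member probes on the array without Fgf2 (grey) and with Fgf2 (orange), filled where the probe was detected; the dotted line is the lowest level of a detected probe on the Fgf2 array, 5.99. Bmp4 is lower and Gdf10 higher with Fgf2, the Id probes are closer together, and Bmp2, Bmp6 and Bambi lie under the line on both arrays; levels of different probes are not on a common scale.

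The other 2 ligand genes were not well above background on either array. Bmp2, whose protein is closely related to that of Bmp4, gave signals of 116 without Fgf2 and 154 with it. Its detection p was 0.798 and 0.0551, so the array with Fgf2 came nearer to the threshold without reaching it. Bmp6, a ligand of another BMP subgroup, gave 113 and 128 at detection p-values of 0.882 and 0.429. No fold is given for either gene; differences of such signals in the authors' deposited table, 2.15 for Bmp2 and 0.73 for Bmp6, are between values at the level of background. Bmp4 and Gdf10 were thus the only ligand members detected on both arrays.

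Grem1 encodes gremlin, a secreted protein that binds BMP2 and BMP4 and keeps them from their receptors. Its signals were 969 without Fgf2 and 894 with it, both at a detection p of 0. The levels of 9.75 and 9.61 differed by -0.14 (1.10-fold lower), a difference whose size was equalled or passed by 67.9% of all genes. It lay within the pooled SD of 0.22 between probes of one gene, taken over 1749 genes with more than 1 detected probe. That SD leaves out variation between cultures, so it does not measure the error of this difference. Bambi, a membrane protein that resembles a type I receptor without a kinase, gave signals of 112 and 115. Both lay under the background mean, at detection p-values of 0.905 and 0.853, so the transcript was not detected in either culture.

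All 4 Id genes had a detection p of 0 in either culture, 2 of them higher and 2 lower with Fgf2, and none was 2-fold apart. Id1 had the highest difference: its signal was 1240.4 without Fgf2 and 1819.6 with it, and its level went from 10.15 to 10.75, which is 0.60 or 1.51-fold higher. Id2 was read by 2 probes that went the same way. One gave signals of 739.7 and 888 with a difference of 0.30 (1.23-fold higher), and the other 312 and 385 with a difference of 0.41 (1.33-fold higher). The gap between these 2 probes was smaller than the pooled SD of 0.22 between probes of a gene.

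Id3 and Id4 were lower with Fgf2. Id3 had signals of 896 and 756 and levels of 9.61 and 9.33, a difference of -0.29 (1.22-fold lower). Id4 had signals of 587 and 432 and levels of 8.90 and 8.30, a difference of -0.59 (1.51-fold lower). The Id family therefore spanned 1.19 on the log2 scale from Id4 to Id1, with a median of 0.01. In the authors' deposited table the differences were 0.62 for Id1, 0.34 and 0.44 for the probes of Id2, -0.32 for Id3 and -0.63 for Id4, in the same order. Differences at least as high as that of Id1 were found in 6.45% of all genes, and at least as low as that of Id4 in 7.10%. These shares describe rank only, because no replicate gives the error of a difference. Id2 and Id3 lay further in, at 21.3% and 18.9%.

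**Figure D2:**
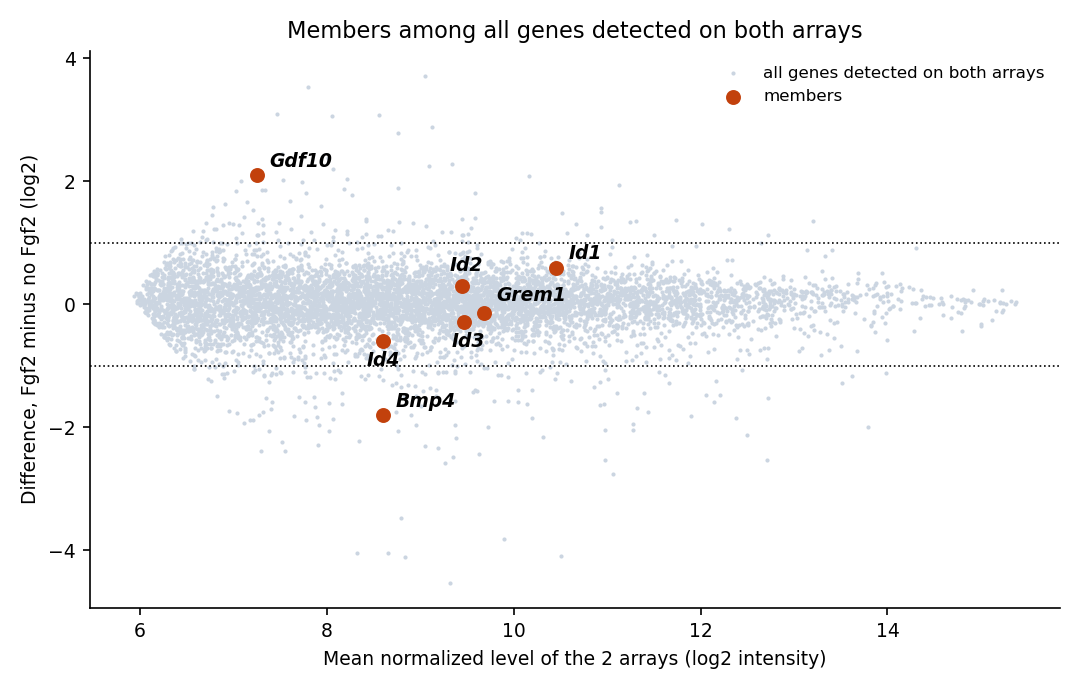
Difference with Fgf2 minus without (log2) against the mean level of the 2 arrays (log2 intensity) for the 6898 genes detected on both arrays (grey) and the 7 members among them (orange); dotted lines mark 2-fold. Gdf10 at 2.10 and Bmp4 at -1.80 lie outside the dotted lines, and Grem1 and the 4 Id genes within them.

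Of the 7 members detected on both arrays, 1 was at least 2-fold higher with Fgf2 (Gdf10) and 1 at least 2-fold lower (Bmp4). Among all 6898 such genes 1.80% were at least 2-fold higher and 2.52% at least 2-fold lower. The members were chosen with earlier results of these data known, so the counts only describe them. At a 1.5-fold threshold the members were 2 higher (with Id1) and 2 lower (with Id4), where the shares of all genes were 6.76% and 7.25%. Both lay close to the 1.5-fold mark of 0.585: Id1 was under it at 0.55 without background correction, 0.58 with an offset of 50 and 0.56 with cyclic loess, and Id4 was within it at -0.44 without correction, -0.54 with that offset and -0.54 with median scaling. The median difference of the 7 was -0.14, beside 0.03 for all genes. With the detected genes cut by mean level into 3 groups of equal size, Gdf10 fell in the lowest, Id1 in the highest, and the other 5 in the middle group, where 4.74% of genes were at least 2-fold apart.

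**Figure D3:**
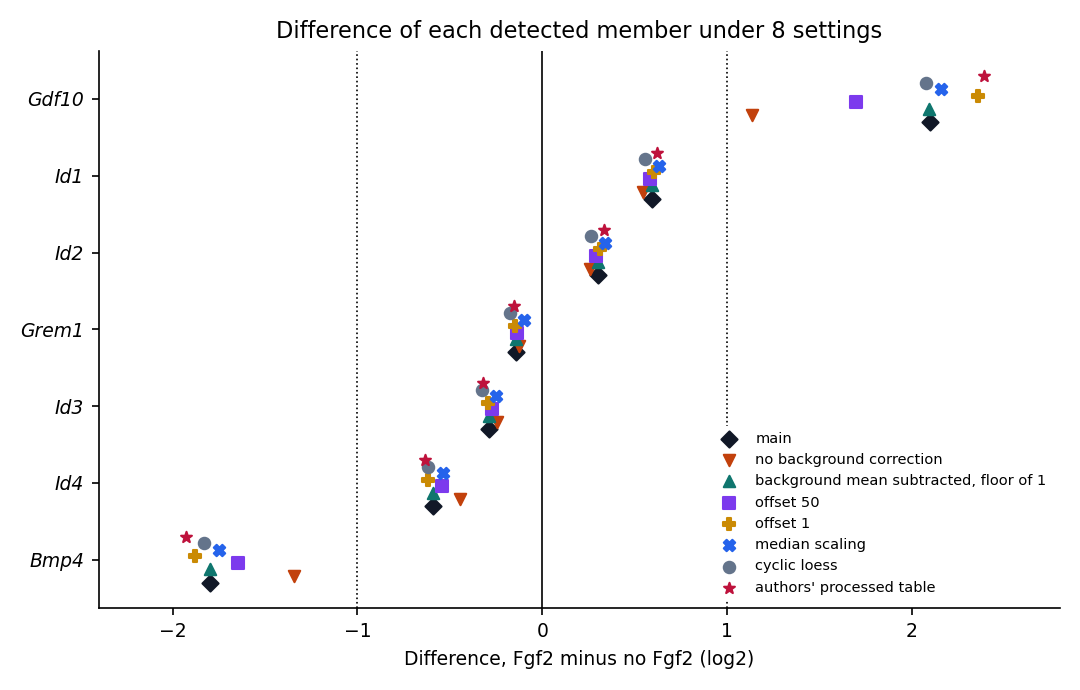
Difference with Fgf2 minus without (log2) of the 7 detected members under the main processing and 7 others; dotted lines mark 2-fold. Every member kept its sign under these settings, and Gdf10 moved most, from 1.13 without background correction to 2.39 in the authors' deposited table.

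The pathway around these genes was described with 6 lists of 76 further genes, of which 68 had a named probe and 31 were detected on both arrays. Of these 31, 2 were at least 2-fold higher and 2 at least 2-fold lower, with a median of -0.09. Together these were 12.9% of the 31, beside 4.32% of all 6898 genes detected on both arrays, whose median was 0.03. The lists were chosen with earlier results of these data known. Of 11 other ligand genes only Bmp5 was detected on both arrays, with signals of 191 and 191 and a difference of -0.03, and the other 10 were detected on neither.

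Among 12 receptor and co-receptor genes, 7 were detected on both arrays, 1 only without Fgf2, 1 only with it and 3 on neither. Both genes detected on both arrays and at least 2-fold apart were co-receptors, higher with Fgf2. Tgfbr3, which encodes betaglycan and binds TGF-beta and BMP ligands, had signals of 454 and 947, a difference of 1.27 (2.41-fold higher). Rgma, a repulsive guidance molecule that acts as a BMP co-receptor, had signals of 593 and 1267 and a difference of 1.25 (2.37-fold higher). Rgmb, its paralog, was detected with Fgf2 only, with signals of 170.3 and 275, and was at least 2.77-fold higher, or at least 1.55-fold without background correction. Its detection p without Fgf2 was 0.010, just over the threshold, and its 2 other probes were detected on neither array. The kinase genes detected on both arrays lay within 2-fold. Acvr2a, a type II receptor gene named after its value was seen, was detected only without Fgf2, with signals of 197 and 148, and was at least 1.35-fold lower. The brightest probe of the type I receptor gene Bmpr1b differed by -0.80, whereas its other detected probe differed by -0.14. That brightest probe was dim, with signals of 287 and 214, and its difference was -0.41 at its smallest over the 8 settings. The type I receptor gene Acvr1 differed by -0.39 and the type II receptor gene Acvr2b by 0.44, and Bmpr1a, named after its value was seen, by 0.05.

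Of 18 further antagonists and extracellular modulators with a probe, 9 were detected on both arrays, 7 with a difference below 0 and 2 above. Crim1, a membrane protein with cysteine-rich repeats that binds BMPs, was at least 2-fold lower: its signals were 369 and 233 and its difference -1.13 (2.19-fold lower), or -0.65 without background correction. Next came the follistatin-like gene Fstl1 at -0.77, Bmper, whose secreted product binds BMPs, at -0.70, and the gene of the ligand trap chordin, Chrd, at -0.63. Chrd was dim, with signals of 257 and 207, and its difference was -0.30 at its smallest over the 8 settings. The gene of noggin, Nog, was detected on neither array. The median of the 9 was -0.52, beside 0.03 for all genes.

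Inside the cell, 9 of 12 genes for Smads and their inhibitors with a probe were detected on both arrays. The corepressor gene Skil, whose product SnoN binds Smads, had signals of 1314.6 and 702 and was 2.05-fold lower with Fgf2, at -1.04, which became -0.90 without background correction. Smad6, which encodes an inhibitory Smad and is itself induced by BMP, had signals of 526 and 355 and a difference of -0.80 by its brightest probe, and -0.36 by the other. Smad7, the other inhibitory Smad gene, had no named probe. The signal-carrying Smad1 differed by 0.16 by its brightest probe and by -0.09 by its other probe detected on both arrays, and the antiproliferative regulator gene Tob1 by 0.32. Smad5 and Smad4 were named after their values were seen. Smad5 differed by -0.10 by its brightest probe and by -0.44 and -0.01 by its other detected probes, and Smad4 by -0.12.

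Of 13 other BMP-induced genes with a probe, 3 were detected on both arrays and none of these was 2-fold apart. Gata2, a zinc finger factor gene, differed by 0.53, Gata3 by -0.48 and the osteoblast factor gene Sp7 by -0.08. Gata3 was dim, with signals of 208 and 182, and its difference was -0.19 at its smallest over the 8 settings. A further 3 were detected without Fgf2 only. Hey1, a helix-loop-helix repressor gene that answers to both BMP and Notch signals, had signals of 480.3 and 158 and was at least 5.82-fold lower with Fgf2; with no background correction that bound was 2.59-fold. The homeobox gene Msx2 had signals of 177 and 140.5 with a bound of only 1.02-fold, and Dlx3 had 174 and 164, for which no bound above 1 could be set. Msx1, Dlx5, Atoh8, Tlx2, Alpl, Ibsp and Bglap were detected on neither array, and Runx2 and Prrx2 had no named probe. The E protein genes Tcf4 and Tcf12, whose products the Id proteins bind, differed by -0.0050 and 0.22 by their brightest probes.

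**Figure D4:**
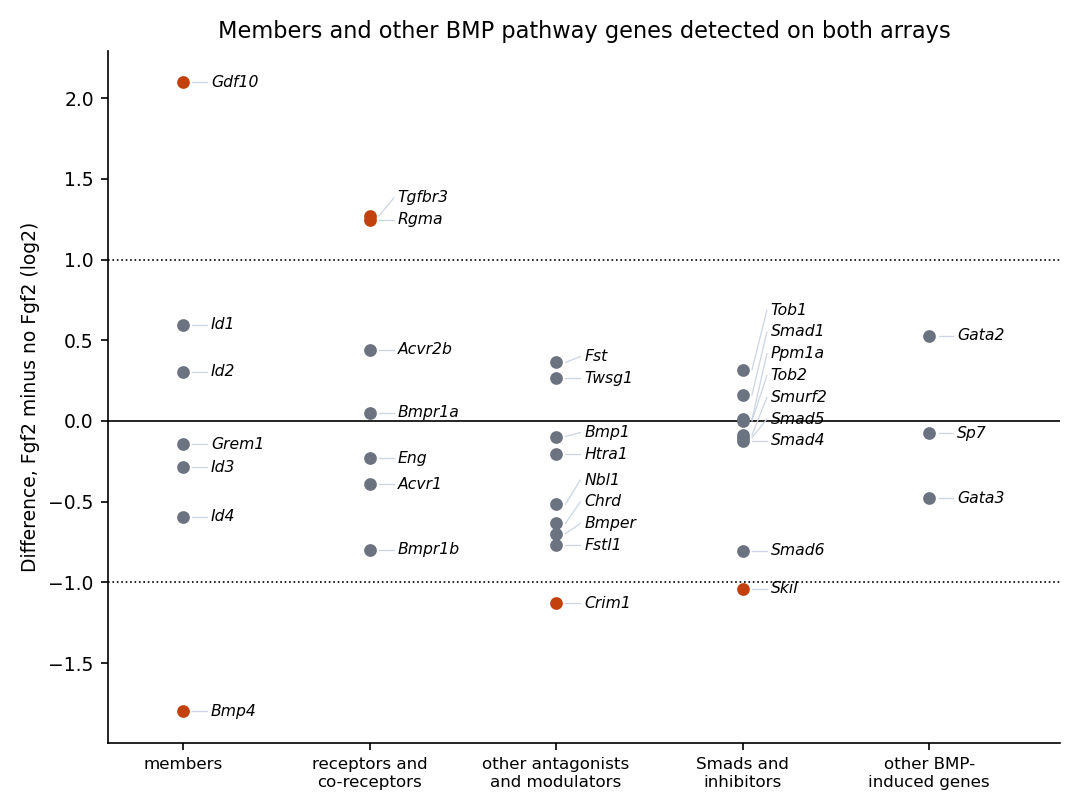
Difference with Fgf2 minus without (log2) of the members and of the genes of 4 other pathway lists that were detected on both arrays, each point 1 gene by its brightest probe; orange points are at least 2-fold apart and dotted lines mark 2-fold. Tgfbr3 and Rgma lie above the upper line with Gdf10, and Crim1 and Skil below the lower line with Bmp4.

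Markers of other cell types were few on both arrays, as were those of pluripotent cells. Detected on both arrays were 2 of 6 macrophage genes, 1 of 7 endothelial, 3 of 7 epithelial, 1 of 6 skeletal muscle, 2 of 9 chondrocyte and bone, and 0 of 8 pluripotent cell genes. Among those detected on neither were Ptprc, Pecam1, Cdh1, Myod1, Acan, Pou5f1 and Nanog. Those detected on both included the macrophage gene Lyz2 (signals of 394 and 437), the endothelial Flt1 (630 and 512) and the bone gene Sp7 (270 and 263). The epithelial Krt8 (387 and 267) and Krt18 (296 and 354) were also detected on both. Zfp42, of the pluripotent cell list, was detected only without Fgf2, with signals of 181 and 154. Summed linear levels without and with Fgf2 were 483 and 639 for the macrophage list, 709 and 611 for the endothelial, 1019.8 and 775 for the epithelial, 923 and 507 for the skeletal muscle, and 1261 and 681 for the chondrocyte and bone list. These sums cover every gene of a list with a probe, so undetected genes at the level of background add to them. Des was the largest term of the skeletal muscle sum, and Col2a1 of the chondrocyte and bone sum, on both arrays. Col2a1, of cartilage collagen, had signals of 957 and 438 and was 2.64-fold lower with Fgf2. Of the other lists, the epithelial Krt14 was at least 5.86-fold lower (at least 2.61-fold without background correction) and the muscle gene Des 2.14-fold lower. The epithelial Krt19 (signals of 209 and 360) was 2.50-fold higher and the macrophage gene Cd14 (176 and 304) 2.99-fold higher. At their smallest over the 8 settings, the log2 differences were -0.88 for Des, 0.72 for Krt19 and 0.73 for Cd14, all within 2-fold. The fibroblast list summed to 51894.5 and 44741, with Col1a1 5.76-fold, Col1a2 3.61-fold and Pdgfrb 3.48-fold lower and Pdgfra 2.56-fold higher with Fgf2. The log2 difference of Pdgfrb was -0.98 at its smallest over the 8 settings, within 2-fold. The part of these differences in those of the BMP genes was not tested.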

How the data were processed

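RNA of 2 cultures was measured on 1 array each, from 300 ng of RNA amplified into biotinylated cRNA, per the labels' protocols. The authors deposited a linear intensity per probe and array, beside which, per the file headers, stands a detection p-value. The authors also deposited processed log2 values with the same median, 4.30, on both arrays. The submitters' processing notes name BeadStudio 3.2, RMA and lumi without saying what each did; the background correction behind either table is not stated there.

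Background correction used limma 3.58.1 under R 4.3.3: normexp with the background inferred from the detection p-values, an offset of 16, quantile normalization and log2. Tables and plots used Python 3.11.15, pandas 2.3.3, numpy 2.4.6 and matplotlib 3.10.9. Of 25697 probes, 23978 carried 1 gene in the platform annotation, 23962 of them matched to RefSeq by Entrez number. A gene is its probe with the highest mean level. A gene detected on 1 array has a lower bound on its fold, set against the lowest level of a detected probe on the dimmer array (5.87 without Fgf2, 5.99 with it) or its own level if higher. With 1 array a group no test was possible, and precision is limited by the number of arrays. The steps were tested on simulated arrays, with changes well beyond 2-fold placed only on probes well above background. The recovery of changes in dim probes or near 2-fold was not tested.

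The members and lists were chosen with earlier results of these data known. Named beside the members are the pathway genes at least 2-fold apart or with a bound of 2-fold, up to 3 more a list by absolute difference, and all BMP-induced genes with Smad6 and Smad7. Nog, Acvr2a, Bmpr1a, Smad4 and Smad5 were named outside this rule. The alternatives were other background corrections, offsets, scalings, detection filters, probe summaries and fold thresholds, and the authors' processed table.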

Additional observations from a re-analysis of the deposited data

How the results depend on the processing

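The 7 detected members kept their sign under every alternative that gave them a value (12 each, 11 for Gdf10), and Grem1 and the Id genes each moved by less than the SD of 0.22 between probes. A detection filter could not change a gene's difference, and averaging probes could change only that of Id2, the member with 2 probes. For the other members only the background corrections, offsets, scalings and the authors' deposited table could have changed a sign. Gdf10 ranged from 1.13 to 2.39 and Bmp4 from -1.93 to -1.34. With a detection p of 0 required on both arrays, Gdf10 dropped out, so 0 members and 81 of all genes were at least 2-fold higher. The members' median became 0.13 with no detection filter, where the 3 undetected genes enter. At 1.5-fold the counts were 2 members higher and 2 lower, and 466 of the 6898 genes higher and 500 lower (6.76% and 7.25%). Of the 31 pathway genes, 2 were higher and 7 lower at 1.5-fold. At 3-fold the counts were 31 and 63 of all genes and 0 and 0 pathway genes. Without background correction 53 of all genes were at least 2-fold higher and 96 lower. The 2 lower pathway genes, Crim1 and Skil, became 0 without background correction and 0 with an offset of 50, and 1 with median scaling. Counts of all genes were 219 higher and 279 lower, with 3 pathway genes higher and 4 lower, when detection on at least one array was enough. With no filter they were 236 and 286 of 16593 genes, with 3 pathway genes higher and 4 lower. Detection filters change how many genes are compared, so the counts under different filters are not comparable as shares. No paired analysis was possible because each group held 1 array. Dim probes near the background, among them Gdf10 without Fgf2, are where the values are least certain.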

Other observations

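Other helix-loop-helix factor genes, a list added after the data were seen, went both ways. Of 14 genes with a probe, 6 were detected in both cultures, 3 with a difference above 0 and 3 below, with a median of -0.15. Hes1, a repressor gene known as a Notch target, had signals of 880.4 without Fgf2 and 386 with it and was 2.84-fold lower. Bhlhe40, a repressor gene tied to the circadian clock, had signals of 2531 and 1141 and was 2.36-fold lower. Twist2, a mesenchymal factor gene, had signals of 2516 and 4734 and was 1.93-fold higher, while its relative Twist1 differed by 0.03. Scx, a tendon factor gene, differed by -0.33 and Hes6 by 0.15 by its brightest probe, with its 3 detected probes from -0.16 to 0.15.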
